A study of Homo sapiens with 18 samples.

Results

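The BCL2 family decides whether the outer mitochondrial membrane stays closed or is opened, and 10 of its genes, of 58051 genes in the deposited table, were followed here through all 18 RNA sequencing libraries of the series. They were chosen by name, as the best known members of each functional class: 4 survival genes (BCL2, BCL2L1, MCL1 and BCL2A1), 2 effectors (BAX and BAK1) and 4 BH3-only genes (BCL2L11, BID, PMAIP1 and BBC3). The libraries came from SKMEL2 and SKMEL30, human melanoma cell lines which both carry an NRAS variant affecting codon 61. In each line a lentiviral pTRIPZ construct with N-terminally Myc-tagged PPP2R3B, under a tetracycline-responsive promoter, had been integrated and the stable population selected with puromycin; PPP2R3B encodes PR70, a regulatory B subunit of the phosphatase PP2A. Each line was sequenced in 3 states with 3 libraries each, untreated (uninduced, without doxycycline) and 6 or 18 hours into induction. The labels give no time of harvest for the untreated libraries. The later time is given as in the sample labels, whereas the methods text gives 16 hours. No doxycycline-treated cells without the construct were analysed here, so that an effect of doxycycline and an effect of PPP2R3B cannot be told apart.

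Survival members of the family bind and restrain BAX and BAK1, which otherwise assemble into pores that release cytochrome c and start the caspase cascade. BH3-only members carry the stress signal: BIM (from BCL2L11), PUMA (from BBC3), NOXA (from PMAIP1) and truncated BID occupy the groove of the survival proteins, and some of them also activate the effectors directly. In the melanocyte lineage BCL2 and BCL2A1 are known target genes of MITF, the lineage transcription factor, and BIM protein is removed when it is phosphorylated by ERK downstream of NRAS or BRAF. Much of the control of these proteins lies in phosphorylation and turnover, for which PP2A is one of the known phosphatases, and a transcript measurement does not see it.

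The libraries held 13402606 to 22383429 counts each. The induced gene was present as labelled: PPP2R3B stood at 17.2 to 24.4 CPM (counts scaled to the size of each library) in the uninduced SKMEL2 libraries and at 343 to 515 in those of 6 hours, and at 19.8 to 22.4 CPM in uninduced SKMEL30 against 614 to 617 at 18 hours. All 8 melanocyte lineage markers were detected in both lines, with TYRP1 at only 3.44 to 4.48 CPM in uninduced SKMEL2. Among 7 markers of other cell types found in the table (of 8 listed), the basal keratins KRT5 and KRT14 varied between libraries of a group. KRT5 reached 37.5 CPM in replicate 3 of SKMEL30 at 6 hours and 6.49 CPM in replicate 3 at 18 hours, against at most 0.38 CPM in uninduced SKMEL30. The labels do not say whether replicates were separate cultures, so the p-values below measure the spread between these libraries, and in bulk RNA fewer expressing cells and less RNA per cell cannot be told apart.

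The clearest differences were between the lines, above all in BCL2A1, and no change of a member on induction was detected. In each line all 10 passed the filter on low counts. Fold changes were tested with the quasi-likelihood test of edgeR, with Benjamini-Hochberg adjustment over all genes tested and a threshold of 0.05.

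**Figure D1:**
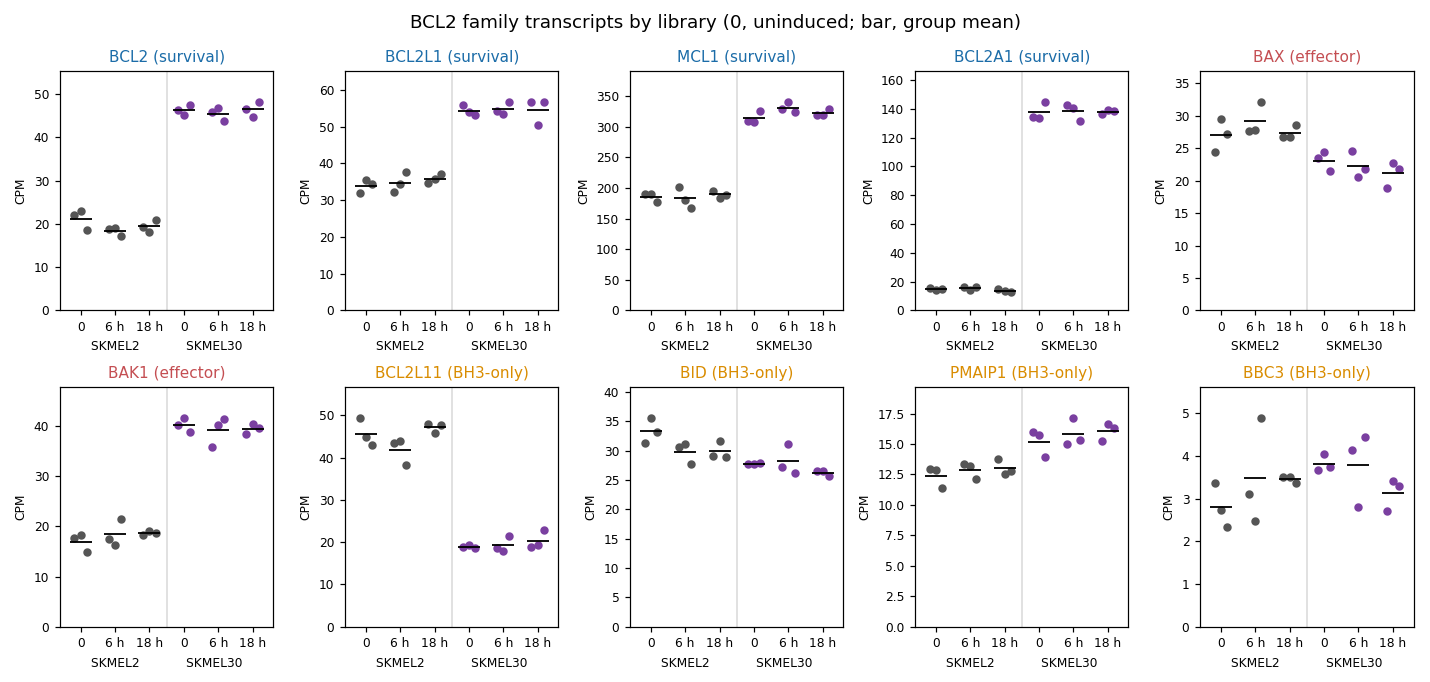
CPM of each gene in every library, with 3 points per group and a bar at the group mean, SKMEL2 in grey and SKMEL30 in purple. Within a line the 6 induced libraries overlap the 3 uninduced ones for each gene. BCL2A1, BCL2, BAK1, MCL1, BCL2L1 and, by a narrow margin, PMAIP1 stand higher in every SKMEL30 library and BCL2L11 higher in every SKMEL2 library.

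The first question was how the family is set in each line without induction. Between uninduced SKMEL30 and uninduced SKMEL2, 9 of the 10 genes differed, 6 higher and 3 lower in SKMEL30. The lines differ at most genes, with 75.9% of 17133 genes tested called in the same comparison, so the count of members is close to the background and it is the sizes and directions that describe the family. The median log2 difference of the 10 genes was 0.56, beside -0.05 over all genes tested.

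All 4 survival genes were higher in SKMEL30. BCL2A1, which encodes the short-lived survival protein BFL-1, had by far the widest gap. It stood at 15.5, 14.4 and 14.7 CPM in the uninduced SKMEL2 libraries and at 135, 133 and 145 CPM in those of SKMEL30. The difference was 9.24-fold, or 3.21 ± 0.06 on the log2 scale (SE; adjusted p = 6.92e-19, edgeR). Over all 9 libraries of a line the SKMEL2 values ran from 12.9 to 16.3 CPM and the SKMEL30 values from 131 to 145 CPM, so the lines did not come near each other in any state. The gene lies on chromosome 15 at 79960892 to 79971196 (GRCh38.p14).

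The promoters of the genes at either end of the line comparison are shown so that their letters can be set beside the levels. Both are the 250 bases before the RefSeq start site on GRCh38.p14, 5′ to 3′ on the strand of the gene, BCL2A1 at chr15:79971197-79971446 on the minus strand and BCL2L11 at chr2:111120664-111120913 on the plus strand. Capitals mark the E-box form CATGTG, a sequence that MITF can bind.
BCL2A1: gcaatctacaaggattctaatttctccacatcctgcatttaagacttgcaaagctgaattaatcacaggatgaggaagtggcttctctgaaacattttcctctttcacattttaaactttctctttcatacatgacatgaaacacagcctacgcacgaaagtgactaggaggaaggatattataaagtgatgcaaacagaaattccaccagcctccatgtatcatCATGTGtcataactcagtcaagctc
BCL2L11: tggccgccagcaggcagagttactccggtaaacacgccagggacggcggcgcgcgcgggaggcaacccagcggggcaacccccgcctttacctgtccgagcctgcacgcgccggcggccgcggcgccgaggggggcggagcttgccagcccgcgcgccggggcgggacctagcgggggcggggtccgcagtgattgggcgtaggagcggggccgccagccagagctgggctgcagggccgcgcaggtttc
The BCL2A1 window was 38.8% G and C, held CATGTG once, 25 bases before the start, and a TATAAA 70 bases before it. The BCL2L11 window was 76.8% G and C and held neither CATGTG nor CACGTG, but 3 copies of GGGCGG. The window of BCL2, which was higher in SKMEL30, held neither CATGTG nor CACGTG, and that of BAX, which was lower there, held 4 copies of CACGTG. BID, also lower there, has several windows: one held CATGTG 163 bases before its start, and others held CACGTG. The window of BBC3, whose line difference did not pass the test, held CACGTG 232 bases before the start. Searched on both strands, CATGTG was in 9.42% of 35116 promoter windows of this length, CACGTG in 6.34%, TATAAA in 10.7% and GGGCGG in 42.6%. A match is a description of the letters and not evidence of binding in these cells. Promoter windows were found for 9 of the 10 members, MCL1 being the other.

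BCL2, the founding survival gene (chromosome 18, 63123346 to 63320090), stood at 22.0, 22.9 and 18.7 CPM in uninduced SKMEL2 and at 46.3, 45.3 and 47.6 CPM in uninduced SKMEL30. The groups did not overlap, and the difference was 2.19-fold (log2 1.13 ± 0.07, adjusted p = 2.10e-11). MCL1, whose protein is turned over within hours and is the main partner of NOXA, was the most abundant of the 10 genes by CPM in both lines. Its values were 189, 190.4 and 176 CPM in uninduced SKMEL2 against 309, 308 and 325 CPM in SKMEL30, a 1.70-fold difference (log2 0.76 ± 0.05, adjusted p = 1.25e-10). BCL2L1, which encodes BCL-XL, had the smallest gap among the survival genes, with 31.98, 35.4 and 34.4 CPM in SKMEL2 and 56.0, 54.0 and 53.1 CPM in SKMEL30 (1.603-fold, log2 0.68 ± 0.06, adjusted p = 7.24e-09).

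The 2 effectors went in opposite directions. BAK1, resident on the mitochondrial membrane, stood at 17.7, 18.4 and 14.8 CPM in uninduced SKMEL2 and at 40.2, 41.5 and 38.8 CPM in uninduced SKMEL30. All SKMEL30 libraries were above all SKMEL2 libraries, by 2.38-fold (log2 1.25 ± 0.09, adjusted p = 1.34e-10). BAX, which moves from the cytosol to the membrane, was at 24.4, 29.5 and 27.2 CPM in SKMEL2 and at 23.5, 24.3 and 21.5 CPM in SKMEL30. These groups all but touched, the log2 difference was -0.23 ± 0.09 (adjusted p = 0.0267), and the call was lost on leaving out any of 4 single libraries (uninduced SKMEL30 replicates 1 and 3, uninduced SKMEL2 replicates 2 and 3), with log2 values from -0.15 to -0.29 over the 6 omissions.

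Among the BH3-only genes, BCL2L11 carried the clear difference. It stood at 49.3, 44.8 and 42.9 CPM in uninduced SKMEL2 and at 18.8, 19.4 and 18.6 CPM in uninduced SKMEL30, 2.41-fold higher in SKMEL2 (log2 -1.27 ± 0.08 for SKMEL30 over SKMEL2, adjusted p = 2.90e-11). The direction is opposite to that of the survival genes. BID, which links death receptors to mitochondria once cut by caspase 8, was at 31.3, 35.5 and 33.1 CPM in SKMEL2 and at 27.7, 27.8 and 27.9 CPM in SKMEL30 (log2 -0.26 ± 0.07, adjusted p = 0.00232). PMAIP1 was at 12.9, 12.9 and 11.4 CPM in SKMEL2 and at 15.95, 15.7 and 13.9 CPM in SKMEL30 (log2 0.30 ± 0.08, adjusted p = 0.00315). Both shifts were small beside that of BCL2L11, though neither pair of groups overlapped.

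BBC3 was the lowest of the 10 genes, with 43 to 95 counts per library. Its values were 3.38, 2.74 and 2.33 CPM in uninduced SKMEL2 and 3.66, 4.04 and 3.74 CPM in uninduced SKMEL30, which do not overlap, but the log2 difference of 0.45 ± 0.22 did not pass the test (95% interval -0.01 to 0.91, adjusted p = 0.0724). It passed, at 0.60, when uninduced SKMEL2 replicate 1 was left out. Counting error alone gave this gene a coefficient of variation of 12.1% to 13.7% by group, against 1.29% to 1.79% for MCL1.

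**Figure D2:**
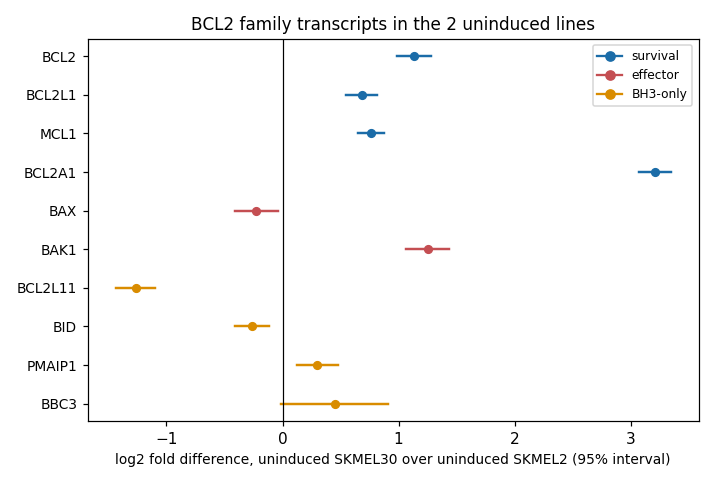
Log2 fold difference of uninduced SKMEL30 over uninduced SKMEL2 for each gene, with its 95% interval (3 libraries against 3), coloured by class. The intervals of the 4 survival genes, BAK1 and PMAIP1 lie to the right of 0, BCL2A1 farthest at 3.21. Those of BCL2L11, BID and BAX lie to the left, BCL2L11 farthest at -1.27, and that of BBC3 includes 0.

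Induced libraries were then included. Over the 9 libraries of each line, 7 of the 10 genes did not overlap between the lines, beside 62.6% of all genes tested: the 4 survival genes, BAK1 and PMAIP1 were higher in every SKMEL30 library and BCL2L11 in every SKMEL2 library. BAX, BID and BBC3 overlapped, and the group means of BBC3 turned, with 2.82 CPM in SKMEL2 and 3.81 CPM in SKMEL30 uninduced but 3.46 and 3.14 CPM at 18 hours. BCL2L11 ran from 38.2 to 49.3 CPM in SKMEL2 and from 17.9 to 22.8 CPM in SKMEL30. PMAIP1, the narrowest separation, ran from 11.4 to 13.8 CPM in SKMEL2 and from 13.9 to 17.1 CPM in SKMEL30. The summed level of the 7 markers of other cell types was 10.3 to 18.4 CPM in uninduced SKMEL2 and 0.676 to 1.8996 CPM in uninduced SKMEL30, with the 2 keratins making up most of it in SKMEL2, and its part in the line differences was not tested.

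Levels of different genes were then compared per length, as CPM per kb of the MANE Select transcript. In uninduced SKMEL2, MCL1 led with 46.9 ± 2.01 CPM per kb (SD, n = 3), ahead of BAX with 34.0 ± 3.25 and BCL2A1 with 19.1 ± 0.704. BID (15.3), BCL2L1 (13.2), BCL2L11 (8.96), BAK1 (7.80), PMAIP1 (6.52), BCL2 (3.08) and BBC3 (1.53) followed in CPM per kb. Each gene stood above the next in every library except BCL2L11 and BAK1, whose ranges overlapped.

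In uninduced SKMEL30 the order changed at the top. BCL2A1 led with 176 ± 7.92 CPM per kb, ahead of MCL1 with 79.5 ± 2.46, and BAX followed with 29.0 ± 1.85. Next came BCL2L1 (21.1), BAK1 (18.5), BID (12.8), PMAIP1 (8.004), BCL2 (6.74), BCL2L11 (3.72) and BBC3 (2.07), in CPM per kb and with no overlap between neighbours. Of the summed CPM per kb of the 4 survival genes, BCL2A1 made up 62.1% ± 0.565 in SKMEL30 and 23.2% ± 0.985 in SKMEL2, whereas MCL1 made up 28.0% ± 0.155 and 57.0% ± 0.840 (SD, n = 3). BCL2 was the smallest share in both, with 3.74% in SKMEL2 and 2.38% in SKMEL30.

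The order depends on the length used. With the union of all annotated exons, chosen as an alternative after the data were seen, BCL2A1 and MCL1 kept their places at the top of SKMEL30 (138 and 50.5 CPM per kb), while BAX, for which the MANE Select transcript is 795 bases and the union 2587, went from 34.0 to 10.4 CPM per kb in SKMEL2, behind BCL2A1 with 15.0.

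**Figure D3:**
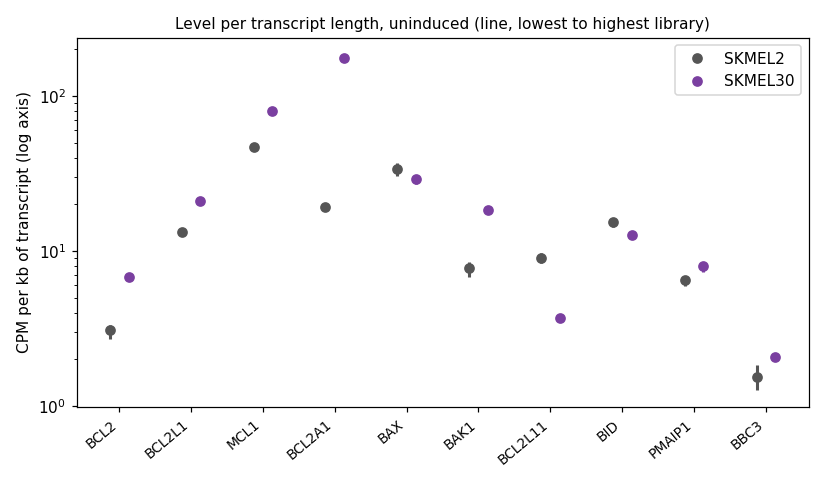
Level of each gene per length of its MANE Select transcript in the uninduced libraries (log axis; point, mean; vertical line, lowest to highest of 3 libraries), SKMEL2 in grey and SKMEL30 in purple. BCL2A1 is at 176 CPM per kb in SKMEL30 and 19.1 in SKMEL2, and BCL2L11 is the gene with the widest gap the other way.

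The balance of the family was described in each library as the mean log2 CPM of the 6 pro-apoptotic genes minus the mean log2 CPM of the 4 survival genes. It is a score over chosen genes that weights each equally, and it carries no test. In uninduced SKMEL2 it was -1.11, -1.13 and -1.19, and in uninduced SKMEL30 it was -2.54, -2.47 and -2.63. SKMEL2 thus stood 1.40 higher on the log2 scale, against a pooled SD within groups of 0.0745. The gap was 0.82 when BCL2A1 was left out of the score and 1.49 when BBC3 was. Its size depends on the genes chosen. Outside the score, BAD, HRK and BOK had mean CPM of 6.53, 11.6 and 15.3 in uninduced SKMEL2 and 18.5, 27.8 and 27.1 in uninduced SKMEL30. BCL2L2, a survival gene, was also higher in SKMEL30 (29.7 and 41.4), and BMF was slightly lower (6.10 and 5.73). A score with these genes was not computed.

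The ratios of known binding partners chosen here showed the same order of the lines. Not every pair would: BAK1 was higher in SKMEL30 by more (log2 1.25) than BCL2 (1.13), MCL1 (0.76) or BCL2L1 (0.68), though by less than BCL2A1 (3.21). BAX over BCL2 was 0.35 ± 0.20 on the log2 scale in uninduced SKMEL2 and -1.01 ± 0.13 in uninduced SKMEL30 (SD, n = 3). The change of sign is one of reads: per kb of MANE Select transcript BAX stood above BCL2 in both lines. The values were 34.0 against 3.08 CPM per kb in uninduced SKMEL2 and 29.0 against 6.74 in uninduced SKMEL30. BCL2L11 over BCL2L1 was 0.43 ± 0.17 in SKMEL2 and -1.52 ± 0.05 in SKMEL30. PMAIP1 over MCL1 was nearer, with -3.90 ± 0.04 in SKMEL2 and -4.37 ± 0.15 in SKMEL30. These are ratios of CPM, not per length, and only their differences between libraries can be read.

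The second question was whether induction of PPP2R3B moved any of the genes. None of the 10 was called in any of the 4 comparisons of induced with uninduced cells. In SKMEL2 0.0124% of 16120 genes were called at 6 hours and 0.0124% at 18 hours, and in SKMEL30 0.206% of 15026 genes were called at 6 hours and 0.293% at 18 hours. At an unadjusted p under 0.05 the number of members was 0 of 10 in both SKMEL2 comparisons, 1 at 6 hours in SKMEL30 and 0 at 18 hours, beside 3.37% and 4.65% of all genes in SKMEL2 at 6 and 18 hours and 6.44% and 9.14% in SKMEL30. DESeq2 called 0 of 10 in all 4 comparisons, although it gave an adjusted p for only 2 of the 10 in SKMEL30 at 18 hours.

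The intervals say how large a change could have been missed. Apart from BBC3, the 95% intervals of the other 9 genes lay between 0.752-fold and 1.32-fold of the uninduced level in SKMEL2, taking both times together, and between 0.804-fold and 1.22-fold in SKMEL30. For BBC3 they reached 1.802-fold in SKMEL2 at 6 hours and 0.625-fold in SKMEL30 at 18 hours. SKMEL2 was the noisier line, with an estimated variation between libraries, beyond counting error, of 8.36% over all genes against 4.11% for SKMEL30.

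Among the survival genes in SKMEL2, BCL2 had the lowest p. After 6 hours it stood at 18.8, 19.0 and 17.2 CPM and after 18 hours at 19.3, 18.1 and 20.96 CPM, beside 22.0, 22.9 and 18.7 CPM uninduced. One uninduced library fell within the induced values, and the log2 fold change was -0.21 ± 0.09 at 6 hours (unadjusted p = 0.0504, adjusted p = 0.989) and -0.13 ± 0.09 at 18 hours. The other 3 survival genes of SKMEL2 had log2 fold changes from -0.12 to 0.08 over both times.

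In SKMEL30 the values of the survival genes lay close to the uninduced ones. BCL2A1 was at 142, 140.5 and 131 CPM after 6 hours and at 137, 139 and 138 CPM after 18 hours, beside 135, 133 and 145 CPM uninduced. A single induced library lay below the lowest of these, and the log2 fold change was 0.00 ± 0.04 at both times. MCL1 was at 329, 340.1 and 324 CPM after 6 hours and at 319, 319.7 and 328 CPM after 18 hours, beside 309, 308 and 325 CPM uninduced. Its log2 fold change was 0.07 ± 0.03 at 6 hours (adjusted p = 0.672, edgeR) and 0.04 ± 0.03 at 18 hours, and at 6 hours it was the single member past an unadjusted threshold of 0.05 in this line. BCL2 and BCL2L1 stayed within 0.03 of 0 on the log2 scale at both times.

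The effectors showed no called change. In SKMEL2, BAX was at 27.7, 27.8 and 32.1 CPM after 6 hours and BAK1 at 17.5, 16.2 and 21.5 CPM, with log2 fold changes of 0.11 ± 0.09 for BAX and 0.12 ± 0.12 for BAK1. In both genes replicate 3 was the high library and the other replicates lay among the uninduced values. After 18 hours BAX was at 26.8, 26.7 and 28.6 CPM, within its uninduced range (log2 0.01 ± 0.09), and BAK1 at 18.3, 19.1 and 18.7 CPM, with 2 of the 3 libraries above the highest uninduced one, at 18.4 CPM (log2 0.14 ± 0.12). In SKMEL30 the log2 fold changes of BAX were -0.07 ± 0.08 at 6 hours and -0.14 ± 0.08 at 18 hours (-0.129 to -0.0096 and -0.186 to -0.060 on leaving out single libraries), and those of BAK1 were -0.03 ± 0.05 at both times.

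Of the BH3-only genes, BID came nearest to a separation. In SKMEL2 it was at 30.6, 31.2 and 27.7 CPM after 6 hours and at 29.0, 31.7 and 29.0 CPM after 18 hours, and 5 of the 6 induced libraries lay below the lowest uninduced one, at 31.3 CPM. The log2 fold change was -0.16 ± 0.08 at 6 hours and -0.16 ± 0.08 at 18 hours (unadjusted p = 0.0643 and 0.0577, adjusted p = 0.989 and 0.987). All 3 libraries of 6 hours were among those below. In SKMEL30 the values were 27.7, 27.8 and 27.9 CPM uninduced and 26.5, 26.5 and 25.7 CPM after 18 hours, all 3 below the uninduced ones. Of the libraries of 6 hours 2 were also below, at 27.2 and 26.3 CPM, so that 5 of 6 were below in this line too, and 1 was above all of them, at 31.2 CPM. The log2 fold change there was 0.02 ± 0.06 at 6 hours and -0.08 ± 0.06 at 18 hours.

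BCL2L11 in SKMEL2 was at 43.4, 43.8 and 38.2 CPM after 6 hours and at 48.0, 45.8 and 47.6 CPM after 18 hours. The uninduced values, 49.3, 44.8 and 42.9 CPM, spanned both groups in part, and the log2 fold changes were -0.12 ± 0.08 and 0.05 ± 0.08. In SKMEL30 they were 0.03 ± 0.08 and 0.10 ± 0.08, the second running from 0.012 to 0.158 on leaving out single libraries. PMAIP1 had log2 fold changes from 0.06 to 0.07 in all 4 comparisons, each with an SE of 0.08 or 0.09.

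BBC3 was the least precise. In SKMEL2 it was at 3.10, 2.47 and 4.89 CPM after 6 hours and at 3.52, 3.50 and 3.36 CPM after 18 hours, with log2 fold changes of 0.31 ± 0.25 and 0.31 ± 0.24. The first rested on replicate 3, and without it was -0.0086. In SKMEL30 it was at 4.13, 2.81 and 4.44 CPM after 6 hours and at 2.72, 3.41 and 3.30 CPM after 18 hours, with log2 fold changes of -0.02 ± 0.18 and -0.29 ± 0.18. The 3 libraries of 18 hours all lay below the uninduced 3.66, 4.04 and 3.74 CPM, although the test did not pass. Except in SKMEL30 at 6 hours its point estimates were the largest of the family in size, and its intervals all included 0.

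**Figure D4:**
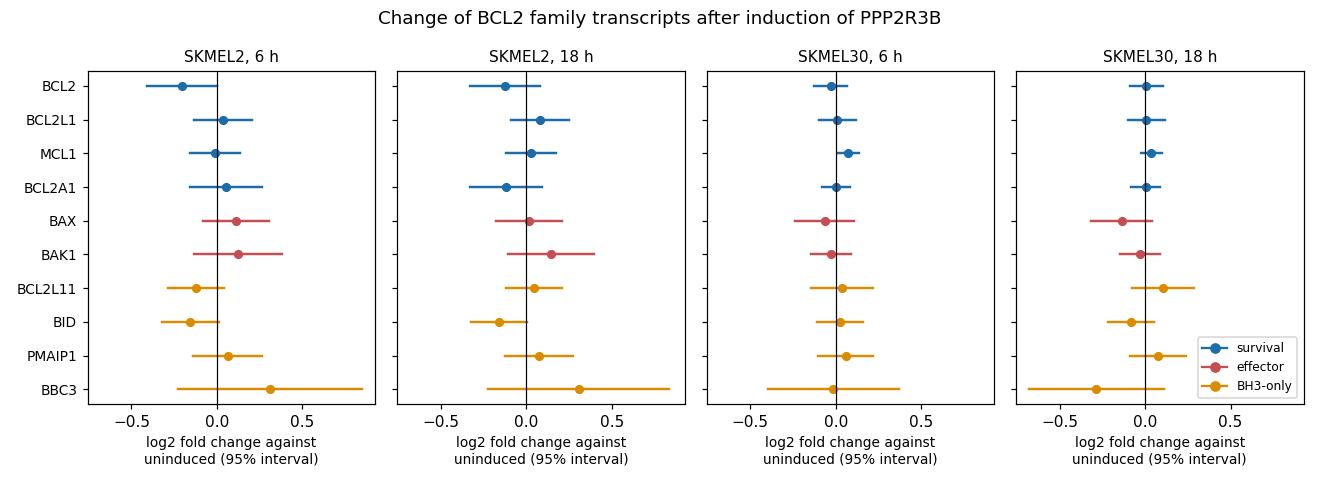
Log2 fold change of each gene against uninduced cells of its line at 6 and 18 hours, with its 95% interval (3 libraries against 3; the times share the uninduced libraries), coloured by class. All intervals include 0 except that of MCL1 in SKMEL30 at 6 hours (0.07 ± 0.03, adjusted p = 0.672), and those of BBC3 are the widest.

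When the 6 induced libraries of a line were set against its 3 uninduced ones, 0 of the 10 genes separated without overlap in SKMEL2, where 2.48% of genes tested did, and 0 of 10 in SKMEL30, where 4.37% did. A two-sided exact permutation test of the difference in mean log2 CPM has 84 splits and cannot give a p below 0.0119. Of 20 such tests, 1 passed an unadjusted threshold of 0.05, that of BID in SKMEL2, with 29.9 CPM induced and 33.3 CPM uninduced (log2 difference -0.16, exact permutation p = 0.0357). The p-values of these 20 tests were not adjusted, and a threshold of 0.05 lets about 1 in 20 pass where nothing changed. The test was run on the members only, so no share over all genes stands beside the 1 that passed.

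Between 6 and 18 hours no member was called, beside 0% of genes in SKMEL2 and 0.0200% in SKMEL30. BCL2L11 in SKMEL2 (log2 0.17 ± 0.08, adjusted p = 0.9998, edgeR) was the single member past an unadjusted threshold of 0.05, beside 2.59% of all genes tested. In SKMEL30 there were 0, beside 5.56% of all genes tested, and DESeq2 called 0 in both lines. No member was called for a difference in response between the lines, beside 0% of 17133 genes at 6 hours and 0.00584% at 18 hours. No member had an unadjusted p under 0.05 there by either tool, beside 4.91% of all genes tested at 6 hours and 5.16% at 18 hours by edgeR. The largest difference was that of BBC3 at 18 hours, 0.59 ± 0.31 on the log2 scale for SKMEL2 minus SKMEL30 (95% interval -0.06 to 1.25, adjusted p = 0.895).

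The shifts of the balance after induction were small beside the gap between the lines. In SKMEL2 it was -1.12, -1.11 and -0.95 after 6 hours and -1.06, -0.99 and -1.06 after 18 hours, and the 3 libraries of 18 hours all stood above the 3 uninduced ones. The mean difference was 0.08 at 6 hours and 0.11 at 18 hours against a pooled SD of 0.0637, and without BBC3 the second was 0.06. Leaving out single libraries gave 0.028 to 0.109 at 6 hours and 0.084 to 0.124 at 18 hours. In SKMEL30 the balance was -2.57, -2.64 and -2.49 after 6 hours and -2.72, -2.53 and -2.60 after 18 hours, with differences from uninduced of -0.02 and -0.07 against a pooled SD of 0.0840. On leaving out single libraries these ran from -0.062 to 0.020 and from -0.112 to -0.018, and without BBC3 the second was -0.024. BAX over BCL2 in SKMEL2 was 0.56, 0.55 and 0.90 after 6 hours, just above the uninduced values of 0.14, 0.36 and 0.54, and at 18 hours it overlapped them. BCL2L11 over BCL2L1 in SKMEL2 moved the other way, by -0.16 at 6 hours and -0.03 at 18 hours, against a pooled SD of 0.164. PMAIP1 over MCL1 there moved by 0.08 and 0.04 against a pooled SD of 0.055.

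**Figure D5:**
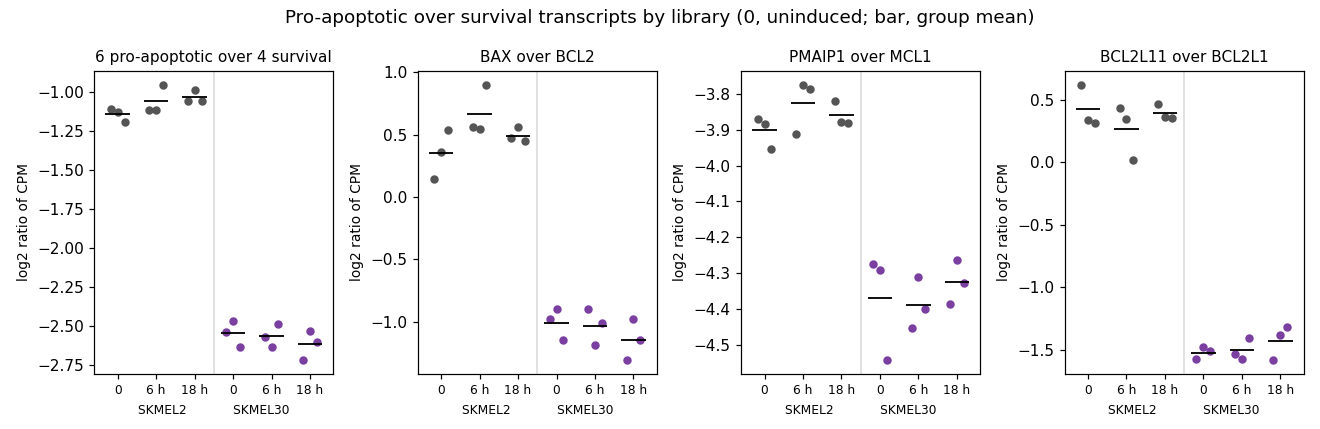
Log2 ratio of pro-apoptotic over survival transcripts in every library (points; bar, group mean), for the 6 against 4 genes and for the pairs BAX and BCL2, PMAIP1 and MCL1, and BCL2L11 and BCL2L1; the vertical axes differ and do not start at 0. In each panel all SKMEL2 libraries lie above all SKMEL30 libraries, and the shift on induction is small beside that gap.

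Leaving out the libraries with the highest keratin reads among induced SKMEL30 changed no call of a member, and the part of the keratin reads in the values above was not tested. Without replicate 3 of SKMEL30 at 6 hours, 0 of 10 members were called, the log2 fold changes ran from -0.18 to 0.09 and the lowest adjusted p was 0.552. Without replicate 3 of SKMEL30 at 18 hours, 0 of 10 were called, with log2 fold changes from -0.33 to 0.06.

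The rest of the pathway, taken from lists of named genes, held hardly any call on induction. Of the other BCL2 family genes, 9 of 13 were tested in SKMEL2 and 10 in SKMEL30, and 0 were called in the 4 comparisons. At an unadjusted p under 0.05 there were 0 at each time in SKMEL2, beside 3.37% and 4.65% of all genes tested. In SKMEL30 there was 1 at each time (10%, beside 6.44% and 9.14% of all genes tested). Over all lists given here, DESeq2 called 0 genes in these comparisons apart from 2 lineage markers, DCT and TYRP1, in SKMEL30 at 18 hours. In that comparison it gave an adjusted p for only 3 of the other family genes, 7 genes of caspase activation and 1 of the death receptor input. It gave one for 6 of the transcription factors, 6 genes of protein turnover and 0 markers of other cell types. Genes without an adjusted p could not be called. HRK, a BH3-only gene best known from neurons, had the lowest p at 18 hours in both lines, with log2 fold changes of 0.29 ± 0.15 in SKMEL2 (adjusted p = 0.987) and 0.20 ± 0.06 in SKMEL30 (adjusted p = 0.241). At 6 hours the lowest p belonged to BCL2L13 in SKMEL2 (log2 0.11 ± 0.07) and to BCL2L2, the gene of the survival protein BCL-W, in SKMEL30 (log2 0.12 ± 0.04, adjusted p = 0.666). The reads of BCL2L2 may be shared with the read-through gene BCL2L2-PABPN1, which held 71 to 209 counts per library.

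Counts of calls between the uninduced lines are to be read beside the 75.9% of all genes. Of the 10 other family genes tested there, 8 differed, 7 higher and 1 lower in SKMEL30. The widest gap was that of BIK, a BH3-only gene, at 0.0497 to 0.132 CPM in SKMEL2 and at 2.37 to 2.41 CPM in SKMEL30. These were 1 to 3 counts per library in SKMEL2 and 38 to 44 in SKMEL30, so the size of this gap rests on values near 0 counts. BNIP3, which acts in mitophagy and responds to hypoxia, was at 13.6 to 15.2 CPM in SKMEL2 and at 87.0 to 97.96 CPM in SKMEL30 (log2 2.68 ± 0.08, adjusted p = 2.59e-16). BAD, whose binding to BCL-XL is switched off by phosphorylation, was at 6.07 to 7.11 CPM and at 17.5 to 19.4 CPM (log2 1.504 ± 0.15, adjusted p = 1.38e-08). These pro-apoptotic genes thus stood higher in the line with the higher survival transcripts, unlike BCL2L11.

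Downstream of the mitochondrion, 0 of 17 genes of caspase activation and its inhibitors were called on induction in either line. At an unadjusted p under 0.05 there was 1 at each time in SKMEL2 (5.88%, beside 3.37% and 4.65% of all genes tested). In SKMEL30 there were 0 at 6 hours, beside 6.44% of all genes tested, and 4 at 18 hours (23.5%, beside 9.14%). BIRC3, the inhibitor cIAP2, had the lowest p in SKMEL2 at both times (log2 -0.41 ± 0.12 at 6 hours and -0.30 ± 0.11 at 18 hours, adjusted p = 0.989 and 0.987). In SKMEL30 it was CYCS, cytochrome c, at 6 hours (log2 0.06 ± 0.03) and BIRC5, survivin, at 18 hours (log2 -0.13 ± 0.04, adjusted p = 0.349). Between the uninduced lines 12 of 17 differed, 8 higher and 4 lower in SKMEL30. BIRC3 was at 10.2 to 11.1 CPM in SKMEL2 and at 0.823 to 1.09 CPM in SKMEL30 (log2 -3.42 ± 0.18), AIFM1 was higher in SKMEL30 by 1.07 ± 0.05 and VDAC2, a mitochondrial channel that binds BAK, by 0.86 ± 0.06 on the log2 scale.

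Of 9 genes of the death receptor input, 9 were tested in SKMEL2 and 8 in SKMEL30, and 0 were called on induction. At an unadjusted p under 0.05 there were 0 at 6 hours in each line, beside 3.37% of all genes tested in SKMEL2 and 6.44% in SKMEL30. At 18 hours there was 1 in each line (11.1% and 12.5%, beside 4.65% and 9.14% of all genes tested). FAS had the lowest p in SKMEL2 at 6 hours (log2 -0.42 ± 0.34) and TRADD at 18 hours (log2 0.37 ± 0.16, adjusted p = 0.987). CASP8, the initiator caspase that cuts BID, had it in SKMEL30 at both times (log2 0.06 ± 0.06 and 0.19 ± 0.06, adjusted p = 0.894 and 0.287). All 9 differed between the uninduced lines, 5 higher and 4 lower in SKMEL30. CASP8 was at 57.1 to 60.0 CPM in SKMEL2 and at 26.4 to 26.9 CPM in SKMEL30 (log2 -1.14 ± 0.05, adjusted p = 2.18e-13). FAS was higher in SKMEL30 (log2 1.11 ± 0.26), and TNFRSF10A, a TRAIL receptor, was at 0.298 to 0.616 CPM in SKMEL2 and at most 0.0564 CPM in SKMEL30.

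Of 14 transcription factors known to act on family genes, 0 were called on induction. At an unadjusted p under 0.05 there were 1 at each time in SKMEL2, and 2 at 6 hours and 3 at 18 hours in SKMEL30 (7.14% at each time, then 14.3% and 21.4%, beside 3.37%, 4.65%, 6.44% and 9.14% of all genes tested). The genes with the lowest p were ATF4 and FOXO3 in SKMEL2 (log2 0.14 ± 0.05 at 6 hours and 0.15 ± 0.06 at 18 hours) and HIF1A and E2F1 in SKMEL30 (log2 0.06 ± 0.03 at 6 hours and -0.13 ± 0.04 at 18 hours). Between the uninduced lines 13 of 14 differed, 6 higher and 7 lower in SKMEL30. TP73 (log2 1.96 ± 0.18) and E2F1 (log2 1.13 ± 0.08) were higher in SKMEL30. MITF was at 397 to 419 CPM in SKMEL2 and at 789 to 816 CPM in SKMEL30 (log2 0.97 ± 0.05, adjusted p = 2.49e-13), the same direction as BCL2 and BCL2A1, a likeness over 2 lines only. Of the 8 lineage markers, MITF among them, 3 were called higher and 4 lower in SKMEL30. TYR and MLANA went down, from mean CPM of 424 and 437 in uninduced SKMEL2 to 238 and 292 in uninduced SKMEL30. A link of MITF to any of these levels was not tested.

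Of 11 genes that act on the stability or phosphorylation of family proteins, 10 were tested in SKMEL2 and 11 in SKMEL30, and 0 were called on induction. At an unadjusted p under 0.05 there were 0 at each time in SKMEL2, beside 3.37% and 4.65% of all genes tested. In SKMEL30 there were 1 at 6 hours and 2 at 18 hours (9.09% and 18.2%, beside 6.44% and 9.14% of all genes tested). PPP2R1A, the PP2A scaffold, had the lowest p in SKMEL2 at 6 hours (log2 0.14 ± 0.08), MARCHF5 at 18 hours (log2 0.12 ± 0.08), and HUWE1, an MCL1 ubiquitin ligase, in SKMEL30 at both times (log2 0.07 ± 0.03 and 0.08 ± 0.03, adjusted p = 0.769 and 0.422). Between the uninduced lines 7 of 11 differed, 4 higher and 3 lower in SKMEL30. FBXW7 (log2 -0.68 ± 0.07) and HUWE1 (log2 -0.59 ± 0.06), both ligases for MCL1 protein, were lower in SKMEL30, and VPS28 (log2 0.59 ± 0.08) was higher. MARCHF5 and BTRC, from the same list, were also higher there. Their mean CPM was 43.1 and 32.5 in uninduced SKMEL2 and 62.6 and 42.1 in uninduced SKMEL30. A link of the ligases to the MCL1 level was not tested. Of the 8 lineage markers, 0 were called on induction by edgeR, with 1 in each of the first 3 comparisons and 3 in SKMEL30 at 18 hours at an unadjusted p under 0.05 (12.5% and 37.5%, beside 3.37%, 4.65%, 6.44% and 9.14% of all genes tested). TYRP1 in SKMEL2 at 6 hours (log2 0.81 ± 0.33, with 12.1 CPM in 1 library and 4.19 and 4.95 CPM in the others), PMEL in SKMEL2 at 18 hours (0.27 ± 0.12), TYR in SKMEL30 at 6 hours (0.06 ± 0.03) and TYRP1 in SKMEL30 at 18 hours (-0.15 ± 0.04, adjusted p = 0.137) had the lowest p. Between the lines 7 of 8 differed, with TYRP1 (log2 8.29 ± 0.21) and PMEL (1.78 ± 0.10) higher and S100B (-1.61 ± 0.05) lower in SKMEL30. Of the markers of other cell types, 6 were tested in SKMEL2 and 2 in SKMEL30, and 0 were called on induction, although KRT14 in SKMEL2 and both keratins in SKMEL30 had an unadjusted p under 0.05 at 6 hours. These were 16.7% and 100% of the markers tested, beside 3.37% and 6.44% of all genes tested.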

How the data were processed

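Messenger RNA of 18 libraries (2 melanoma lines, 3 states, 3 libraries each) was prepared with the KAPA mRNA HyperPrep kit and sequenced in 43-base reads. Per the methods text, the authors used Cutadapt 1.9.1 for trimming, STAR 2.5.2a for alignment (GRCh38, Ensembl release 86) and RSEM 1.3.0 for quantification; the submitters' processing notes list Trimmomatic 0.36, cutadapt 1.5 and STAR 2.2.2a instead, and this was not resolved. The deposited values are RSEM expected counts per gene, of which 12.3% are not whole; RSEM shares out reads that fit several genes, and such reads can move between near copies. They were rounded here to whole counts. Symbols were matched for 55604 of 58051 gene identifiers.

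Counts were tested with edgeR 4.0.16 (R 4.3.3): filterByExpr, TMM factors, and the quasi-likelihood test with the 9 libraries of a line in a single fit, or all 18 for the differences between the lines. Adjusted p-values are Benjamini-Hochberg over all genes tested. SE was taken as the log2 fold change over the root of the F statistic, and intervals are 95%. CPM used TMM factors of all 18 libraries, and lengths are those of GENCODE transcripts. The fits were tested on simulated counts. DESeq2 1.42.0, other scalings, filters and fits, and leaving out each library were the alternatives. Libraries held 13402606 to 22383429 counts, and counting error is least for MCL1 and largest for BBC3. Libraries were not treated as paired by replicate number in the main fits. Residuals of libraries with the same number correlated above 0.1 in 2 of 9 pairs in SKMEL2 and 1 of 9 in SKMEL30. Pairs of different number were not set beside them, so this does not settle whether the numbers pair the libraries. A fit with a replicate block is among the alternatives.

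The members and gene lists were chosen with earlier results of these data known. Named were all 10 members, PPP2R3B and, of each further list, every gene called on induction, the gene with the lowest p in each induced comparison and the 3 with the widest called difference between the uninduced lines. The libraries with high keratin reads, the thinned counts and the union of exon lengths were chosen after the data were seen.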

Additional observations from a re-analysis of the deposited data

How the results depend on the processing

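Under every alternative run, leaving out single libraries included, 0 of the 10 members were called on induction, between 6 and 18 hours or for a difference in response between the lines, although DESeq2 gave an adjusted p for only 2 of the 10 in SKMEL30 at 18 hours. Between the uninduced lines 9 to 10 members were called, and 8 to 10 on leaving out a library: BAX lost its call in 4 omissions and with the libraries thinned to equal depth, and BBC3 gained one with only the 6 libraries compared, with thinning and without uninduced SKMEL2 replicate 1. The line gap of the balance was 0.82 without BCL2A1, 1.49 without BBC3 and 1.36 to 1.44 without single libraries. With the replicate block, 0 of 10 members were called on induction and 9 between the uninduced lines, and the genes called were 3 and 7 in SKMEL2 at 6 and 18 hours, 40 and 37 in SKMEL30, and 16 between 18 and 6 hours in SKMEL30; no member's call changed.

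Directions of the small induction changes turned in 36 of 552 values. At 6 hours in SKMEL30, BCL2A1 was -0.00064 without a filter, and thinning gave -0.021 for BCL2L1, 0.0068 for BAK1 and -0.049 for BCL2L11. The other turns came from leaving out a library, with these ranges of log2 fold change: in SKMEL2 at 6 hours, -0.036 to 0.095 for BCL2L1, -0.080 to 0.040 for MCL1, -0.0075 to 0.21 for BAK1, -0.00094 to 0.098 for PMAIP1, -0.0086 to 0.51 for BBC3; in SKMEL2 at 18 hours, -0.0098 to 0.048 for MCL1, -0.049 to 0.079 for BAX, -0.00098 to 0.11 for BCL2L11; in SKMEL30 at 6 hours, -0.022 to 0.032 for BCL2L1, -0.019 to 0.040 for BCL2A1, -0.074 to 0.020 for BAK1, -0.057 to 0.099 for BCL2L11, -0.057 to 0.082 for BID, -0.0037 to 0.093 for PMAIP1, -0.18 to 0.18 for BBC3; in SKMEL30 at 18 hours, -0.020 to 0.033 for BCL2, -0.021 to 0.059 for BCL2L1, -0.018 to 0.042 for BCL2A1. All main values among these were at most 0.31 in size, that of BBC3 in SKMEL2 at 6 hours. Apart from these 36, the difference of 6 induced and 3 uninduced libraries of SKMEL30 turned with RLE factors, to -1.4e-05 for BCL2L1 and -0.00065 for BCL2A1.

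Counts over all genes moved most without a filter on low counts: 158, 168, 321 and 359 genes on induction (SKMEL2 at 6 and 18 hours, then SKMEL30), 135 and 197 between 18 and 6 hours, and 237 and 216 for the differences in response. DESeq2 gave 7, 10 and 70 (SKMEL2 at both times, SKMEL30 at 18 hours), 3 and 12 between 18 and 6 hours, and 7 for the 18 hour difference. A fit of all 18 libraries gave 6, 7, 5 and 9 on induction and 0 between 18 and 6 hours in SKMEL30. The 6 libraries alone gave 9 for SKMEL2 at 18 hours and 0 between 18 and 6 hours in SKMEL30, where at least 10 counts in every library gave 5. Leaving out a library gave 2 to 5 for SKMEL2 at 6 hours, 16 to 33 and 25 to 30 for SKMEL30, 0 to 1 and 0 to 5 between 18 and 6 hours, and 0 to 1 and 1 to 2 for the differences in response. Depth limits BBC3 most, with 43 to 95 counts per library.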
